A study of Mus musculus with 48 samples.

Results

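The 4 miRNAs described here, mmu-miR-15a-5p, mmu-miR-15b-5p, mmu-miR-16-5p and mmu-miR-195a-5p, are close relatives in the miR-15/16 family, which is known for repressing Bcl2. They were taken by name from a table of 563 mature miRNAs, and each was listed in all 48 libraries. The libraries are small RNA from CD1 mouse ovaries at embryonic day 13.5, each from pooled gonads (about 80 a pool, per the labels), split with anti-CD15 paramagnetic beads into primordial germ cells (PGC) and the remaining ovarian somatic cells (SC). The labels give a purity of 93 to 96% for PGC and over 90% for SC. Pregnant females had drunk water with 0.3% DMSO alone (Control), with MEHP, the active metabolite of a phthalate plasticiser, at 35 mg per kg body weight a day, or with VZN (vinclozolin), a fungicide that blocks the androgen receptor, at 50 mg per kg body weight a day, for the first 13 days of pregnancy. Ovaries came from the F1, F2 and F3 descendants and from F2Sy. In the MEHP and VZN lineages F2Sy are second-generation animals with a mother and a father of exposed descent. Control libraries of F2Sy carry the same class name without exposure. Each of the 24 combinations of 2 fractions, 3 lineages and 4 generation classes held 2 libraries. Nothing in the labels says that the 2 libraries are separate pools or litters, so the p-values rest on a spread between libraries that may be technical.

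A miRNA guides the Argonaute complex to messenger RNAs through its seed, bases 2 to 8 from the 5′ end, and lowers the output of those messages. The miR-15/16 family is known for targeting the message of the anti-apoptotic protein Bcl2 and those of several cyclins that drive the cell from G1 into S phase, and in humans the miR-15a/16-1 locus is often deleted in chronic lymphocytic leukaemia. Germ cells of the fetal ovary multiply by mitosis, enter meiosis and are lost in part by apoptosis, a process in which proteins of the Bcl2 family act. No messenger RNA or protein was measured in these libraries.

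The mature sequences are shown because all 4 members carry 1 seed and differ only in their 3′ parts. Capitals mark the seed, and the sequences are RefSeq's, on its build GRCm38.p6.
mmu-miR-15a-5p: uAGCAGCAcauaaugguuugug
mmu-miR-15b-5p: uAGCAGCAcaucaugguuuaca
mmu-miR-16-5p: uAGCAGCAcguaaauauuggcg
mmu-miR-195a-5p: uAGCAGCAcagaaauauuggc
The next sequences are those of relatives that the results below turn on.
mmu-miR-497a-5p: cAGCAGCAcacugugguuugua
mmu-miR-322-5p: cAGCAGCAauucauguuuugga
mmu-miR-503-5p: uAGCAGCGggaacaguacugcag

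The seed AGCAGCA was held by 6 of the 478 miRNAs of the table that had a RefSeq sequence: the 4 members, miR-322-5p and miR-497a-5p. miR-503-5p differs from it in the last base of its seed, A8G against miR-15a-5p, with positions counted from 1 at the 5′ end. miR-15a-5p and miR-15b-5p were the same at 18 of 22 positions and differed by A12C, G20A, U21C and G22A. miR-16-5p and miR-195a-5p were closer still: over the 21 bases of miR-195a-5p they were the same at 19 positions and differed by G10A and U11G. How reads were divided between near-identical miRNAs is stated nowhere in the labels or the table. Because miR-195a-5p made up only 0.0785 to 0.999% of the summed counts of the 4 members, the values of miR-195a-5p are uncertain in this respect.

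The members lie at 3 loci as pairs with a short gap. miR-15a-5p (chr14:61632075-61632096, minus strand) lies 117 bases from 1 copy of miR-16-5p (Mir16-1, chr14:61631936-61631957, minus strand), both within Dleu2, a noncoding gene of the same strand, and in none of its exons in the GENCODE annotation of GRCm38. miR-15b-5p (chr3:69009775-69009796, plus strand) lies 121 bases from the other copy (Mir16-2, chr3:69009918-69009939, plus strand), both within Smc4, which codes for a condensin subunit, on its strand and in none of its exons. The 2 copies give the same mature miR-16-5p, so its count cannot be divided between the loci. miR-195a-5p (chr11:70235062-70235082, plus strand) lies 310 bases from miR-497a-5p (chr11:70234730-70234751, plus strand). miR-322-5p and miR-503-5p are X-linked neighbours at chrX:53054306-53054327 and chrX:53054027-53054049, both on the minus strand.

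Levels are given as CPM, counts scaled to 1000000 of a library's listed total. That total is the sum over miRNAs with a value in that library and ran from 2932091 to 7946140 in PGC and from 7460018 to 11761591 in SC libraries. The fractions carried the miRNAs of their labels: the summed level of 9 germ cell miRNAs was 170988 to 320688 CPM in PGC and 4564 to 25264 CPM in SC, and that of somatic and mesenchymal miRNAs (7 of 8 in the table) was 6075 to 25584 CPM in PGC and 110237 to 171813 CPM in SC. Of markers of other cells, the erythroid list (3 of 5 in the table) summed to 961 to 6686 CPM in PGC and 8778 to 86158 CPM in SC. The leukocyte list (5 of 5) summed to 339 to 939 CPM in PGC and 104 to 323 CPM in SC, and the endothelial list (1 of 2) to 2271 to 11495 CPM in PGC and 16721 to 30782 CPM in SC. Of these markers miR-223-3p was blank in all PGC libraries, and miR-145a-5p and miR-144-3p in all Control and VZN PGC libraries. The lists move with the fraction, and their part in the differences between fractions was not tested. Bulk libraries cannot tell fewer cells of a type from less RNA per cell. The VZN PGC F2Sy libraries had the lowest median correlations with the other PGC libraries (0.919 and 0.928), and MEHP SC F3 replicate 1 had the lowest in SC (0.934).

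The order of the levels was the same in all 48 libraries: miR-16-5p was highest, then miR-15b-5p, then miR-15a-5p, then miR-195a-5p. The members have 21 or 22 bases, so CPM needs no length scaling between them. miR-16-5p stood 21.2 to 36.9 times above miR-15b-5p in PGC and 9.23 to 21.6 times above it in SC. miR-15b-5p and miR-15a-5p were near neighbours, with a median ratio of 1.48 in PGC, where their ranges over the 24 libraries overlapped, and of 1.85 in SC. The highest miR-195a-5p value in SC just exceeded the lowest miR-15a-5p value there, although in each library miR-15a-5p was at least 2.48 times higher.

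miR-16-5p was among the most abundant miRNAs of both fractions. In Control PGC its lowest, median and highest levels were 31947, 34807 and 36946 CPM, and in Control SC they were 12230, 14785 and 16397 CPM. No PGC library of any lineage overlapped an SC library: the lowest PGC value was 29213 CPM (VZN) and the highest SC value 20471 CPM (VZN). Mean levels were 34667 ± 1941 CPM in Control PGC, 35105 ± 3326 in MEHP PGC and 33122 ± 2760 in VZN PGC, against 14473 ± 1515, 14076 ± 1496 and 15121 ± 2314 CPM in SC (SD, n = 8 libraries each).

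miR-15a-5p levels in Control PGC had a lowest, median and highest value of 513, 716 and 836 CPM, and in Control SC of 425, 593 and 706 CPM. The fractions overlapped in every lineage. In MEHP the values were 633, 724 and 898 CPM in PGC and 221, 614 and 671 CPM in SC. In VZN they were 443, 630 and 894 CPM in PGC and 490, 604 and 708 CPM in SC. The mean in VZN PGC, 640 ± 173 CPM (SD, n = 8), lay within the range of each of the other 5 groups of 8 libraries.

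miR-15b-5p was the most even of the members between fractions. Its lowest, median and highest levels were 1029, 1091 and 1191 CPM in Control PGC and 943, 1118 and 1346 CPM in Control SC. The MEHP lineage gave 850, 1049 and 1436 CPM in PGC and 980, 1068 and 1353 CPM in SC. The VZN lineage gave 917, 1153 and 1614 CPM in PGC and 937, 1071 and 1352 CPM in SC. All 6 groups overlapped.

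miR-195a-5p was the least abundant and the most variable. In Control PGC it was 34.9 CPM at its lowest, 47.1 at the median and 207 at its highest, and in Control SC 22.2, 39.7 and 134 CPM. Most libraries lay low and a few stood far above: 4 of 24 PGC libraries (Control F2 replicate 1, Control F2Sy replicate 2, MEHP F2Sy replicate 2 and VZN F3 replicate 2) and 3 of 24 SC libraries (Control F1 replicate 2, MEHP F2 replicate 2 and VZN F3 replicate 2) exceeded 100 CPM. These 3 SC libraries were among the 4 with the lowest median correlation with the other SC libraries (0.945, 0.961 and 0.952 in the order named, against a median of 0.9752 over all), and the part of this in their levels was not tested. The coefficient of variation over 24 libraries was 63.3% in PGC and 92.0% in SC, against 19.0% and 18.3% for miR-15a-5p, 15.3% and 12.3% for miR-15b-5p, and 8.03% and 12.3% for miR-16-5p. Its count was under 3 times the smallest listed count of its library in 17 of 24 PGC and 16 of 24 SC libraries.

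**Figure D1:**
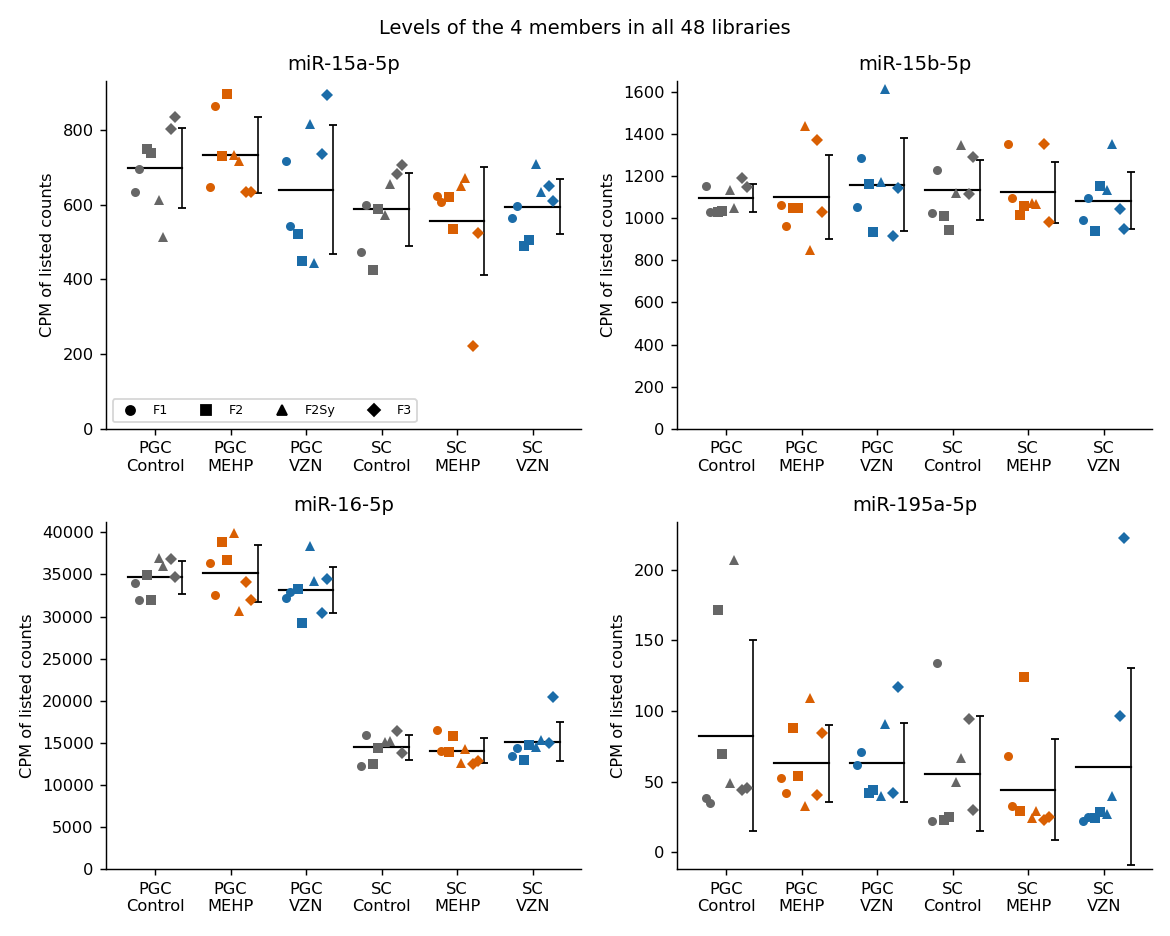
Level of each member in CPM (linear axis) in the 48 libraries, by fraction and lineage; each point is 1 library, its shape the generation class, the line the mean of 8 libraries and the bar 1 SD. miR-16-5p in PGC lies between 29213 and 39860 CPM, above every SC library, while the other 3 members overlap between fractions.

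The first comparison asked how germ cells differ from the somatic cells around them, in each lineage as a mean over the 4 classes. Fold changes are on the log2 scale from edgeR's quasi-likelihood fit, with p-values adjusted by Benjamini-Hochberg over all 251 miRNAs tested and a call at an adjusted p under 0.05. Of all miRNAs tested, 84.1% were called in Control, 41.8% as higher in PGC; 87.3% were called in MEHP, 44.6% as higher in PGC; and 81.3% were called in VZN, 38.6% as higher in PGC. Against that background 2 of the 4 members were called in Control, 2 in MEHP and 1 in VZN, all as higher in PGC. A called difference is thus common between these fractions and sets no member apart.

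miR-16-5p was higher in PGC in all 3 lineages. The difference in Control was 1.37 ± 0.10 (SE; 95% confidence interval 1.17 to 1.57), a 2.59-fold higher level, with an edgeR adjusted p of 5.66e-14. It was 1.41 ± 0.10 in MEHP (adjusted p 2.91e-14, edgeR) and 1.19 ± 0.10 in VZN (adjusted p 1.54e-12, edgeR). Every PGC library exceeded every SC library, as the levels above show. In Control 69 of the 251 miRNAs had a larger log2 fold change in this direction.

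miR-15a-5p was called as higher in PGC in Control and MEHP, by less than miR-16-5p. The difference was 0.35 ± 0.15 in Control (0.04 to 0.66; edgeR adjusted p 0.0338) and 0.51 ± 0.15 in MEHP (0.20 to 0.82; edgeR adjusted p 0.00276). In VZN it was 0.15 ± 0.15 (-0.17 to 0.46; edgeR adjusted p 0.369) and was not called. The Control call was lost without Control PGC F2Sy replicate 1 (0.32, adjusted p 0.0730, edgeR) and with library size as the only scaling (0.24). It was also lost with blank cells of the table taken as 0 (0.20) or as the smallest listed count of the library (0.20), and blanks as 0 ended the MEHP call as well (0.34, adjusted p 0.0691, edgeR). In VZN miR-15a-5p was called when VZN PGC F2Sy replicate 2 was left out (0.37, adjusted p 0.0227, edgeR). Libraries of the fractions overlap in all lineages, and whether the lineages differ was tested directly below.

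miR-15b-5p and miR-195a-5p were not called by edgeR in any lineage. For miR-15b-5p the differences were 0.06 ± 0.11 in Control (-0.17 to 0.29), 0.06 ± 0.11 in MEHP and 0.13 ± 0.11 in VZN, and its sign in Control and MEHP turned negative with library size as the only scaling (-0.05 and -0.03). For miR-195a-5p they were 0.60 ± 0.37 in Control (-0.16 to 1.35; 1.51-fold; edgeR adjusted p 0.131), 0.74 ± 0.37 in MEHP (-0.01 to 1.501; edgeR adjusted p 0.0614) and 0.60 ± 0.37 in VZN (edgeR adjusted p 0.137). The intervals of miR-195a-5p hold both no difference and more than a doubling. The smallest listed count of a library was also higher in CPM in PGC, at a mean of 23.4 against 13.3 CPM in Control. Relative to that count, miR-195a-5p had a median of 2.06 in Control PGC and 2.96 in Control SC. Over the 24 libraries of a fraction these medians were 2.17 and 2.19. The part of this floor in the differences of miR-195a-5p was not tested. Leaving out Control SC F1 replicate 2 raised its Control difference to 1.03 (adjusted p 0.0116, edgeR), and leaving out MEHP SC F2 replicate 2 raised its MEHP difference to 1.15, both then called. Other settings called it too: its MEHP difference was 0.78 with DESeq2 (DESeq2 adjusted p 0.0260), 0.78 with RLE scaling factors (edgeR adjusted p 0.0461) and 0.82 with only the groups compared in the fit (edgeR adjusted p 0.0302). With only the groups compared, its VZN difference was 0.58 (edgeR adjusted p 0.0438).

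**Figure D2:**
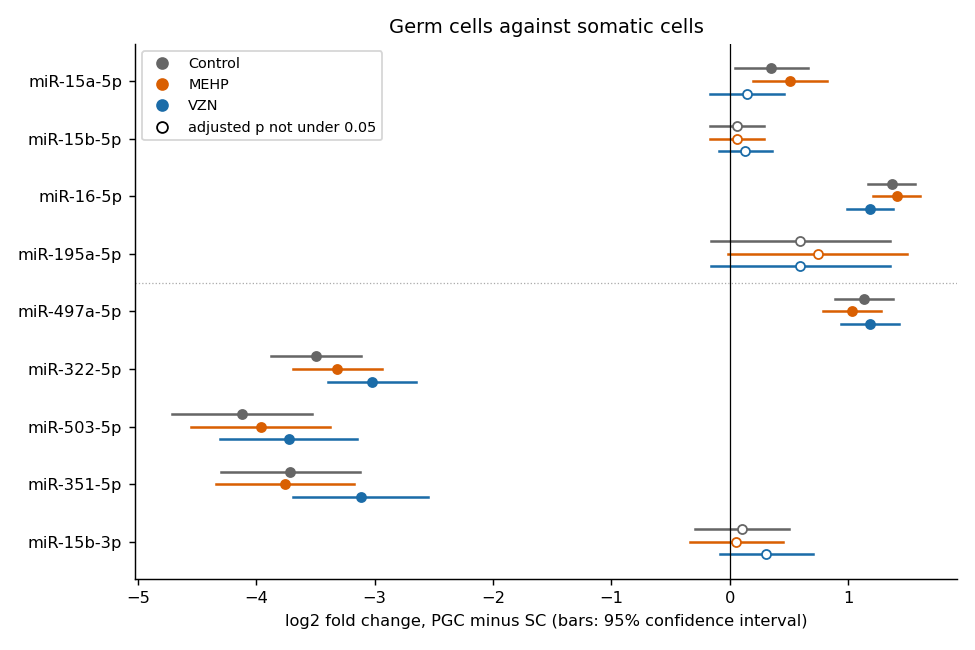
PGC minus SC difference on the log2 scale (points) with its 95% confidence interval (bars) for the 4 members, their relatives and the 3p arm of miR-15b, in 3 lineages; open symbols mark an adjusted p not under 0.05. miR-16-5p lies between 1.19 and 1.41 and miR-322-5p between -3.497 and -3.02.

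The direct test of whether the PGC minus SC difference changes with exposure called no member. For MEHP against Control the changes on the log2 scale were 0.16 for miR-15a-5p, 0.00 for miR-15b-5p, 0.04 for miR-16-5p and 0.14 for miR-195a-5p. For VZN against Control they were -0.21, 0.07, -0.19 and -0.00, with edgeR adjusted p-values of 0.961 or more. No miRNA was called in either test (0% of those tested, with edgeR or DESeq2), and 2 and 3 miRNAs had an unadjusted p under 0.05 with edgeR. The call of miR-15a-5p in Control and MEHP but not in VZN is therefore not shown to be a difference between lineages.

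The shares of the members in their own sum do not depend on scaling between libraries. The 4 together made up 36542 ± 1979 CPM in Control PGC and 16252 ± 1688 CPM in Control SC (SD, n = 8). miR-16-5p was 94.9 ± 0.33% of that sum in Control PGC and 89.1 ± 0.98% in Control SC. miR-15b-5p was 3.00 ± 0.16% against 7.01 ± 0.78%, and miR-15a-5p 1.92 ± 0.32% against 3.61 ± 0.42%. For these 3 the fractions did not overlap, and an exact permutation test within the 4 classes (two-sided, all arrangements) gave p = 0.00154, the smallest it can give, or 0.00206 adjusted over the 4 shares. The shares add up to the whole, so a higher share of miR-16-5p lowers the others and these 3 results are not independent. A lower share of miR-15a-5p or miR-15b-5p does not mean a lower level in PGC. miR-195a-5p was 0.224 ± 0.18% against 0.326 ± 0.21% (exact permutation p = 0.383).

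The shares were also tested in the exposed lineages, an addition made after the Control shares were seen. In MEHP miR-16-5p was 94.9% of the sum in PGC and 89.1% in SC, and in VZN 94.7% and 89.6% (exact permutation p = 0.00154 each, the smallest possible). miR-15b-5p was 2.97% and 7.16% in MEHP, and 3.31% and 6.51% in VZN. miR-15a-5p was 1.99% and 3.52% in MEHP, and 1.83% and 3.56% in VZN. The MEHP share of miR-15a-5p overlapped between fractions through MEHP SC F3 replicate 1, the VZN share of miR-15b-5p overlapped as well, and both still passed the exact permutation test (p = 0.00463 and 0.00154).

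Each of the miR-16 loci also makes a partner, so the ratio of miR-16-5p to each partner was compared within libraries, also as an added test. The log2 ratio of miR-16-5p to miR-15a-5p was 5.65 ± 0.26 in Control PGC and 4.63 ± 0.17 in Control SC (SD, n = 8), a difference of 1.02. That to miR-15b-5p was 4.98 ± 0.08 and 3.67 ± 0.18, a difference of 1.31. Both differences gave an exact permutation p of 0.00154, the smallest possible, in Control, and both were seen in MEHP (0.87 and 1.36) and VZN (1.07 and 1.05). For the 2 arms of miR-15b no difference was detected: the log2 ratio of miR-15b-5p to miR-15b-3p was 3.35 ± 0.26 in PGC and 3.39 ± 0.24 in SC in Control, a difference of -0.05 (exact permutation p = 0.681). The ratio of miR-15b-5p to miR-15a-5p was lower in PGC than in SC in Control (-0.29, exact permutation p = 0.00309), and differed by 0.02 in VZN (exact permutation p = 0.926). In MEHP the difference was -0.49 (exact permutation p = 0.0386, 0.0482 adjusted over 5 ratios), but it did not pass in 11 of 16 fits with 1 library left out, and was -0.27 (adjusted exact permutation p 0.147) without MEHP SC F3 replicate 1.

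Most counts of the seed AGCAGCA came from a different miRNA in each fraction, among the 478 miRNAs with a RefSeq sequence. In Control PGC miR-16-5p made up 80.4 ± 3.25% of the summed CPM of the 6 miRNAs with that seed and miR-322-5p 14.2 ± 3.32% (SD, n = 8). In Control SC the order was turned, with 16.5 ± 2.96% for miR-16-5p and 81.2 ± 3.24% for miR-322-5p. The other 4 were small: miR-15b-5p was 2.54% in PGC and 1.29% in SC, miR-15a-5p 1.62% and 0.666%, miR-497a-5p 1.11% and 0.267%, and miR-195a-5p 0.192% and 0.0606%. The summed level of the seed was 43157 ± 2115 CPM in Control PGC and 89829 ± 18144 CPM in Control SC. In MEHP miR-16-5p held 81.2% in PGC and 18.6% in SC, and in VZN 75.9% and 18.0%. The log2 ratio of miR-16-5p to miR-322-5p differed between fractions by 4.85 in Control, 4.74 in MEHP and 4.24 in VZN, with no overlap (exact permutation p = 0.00154 each, the smallest possible, added test).

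**Figure D3:**
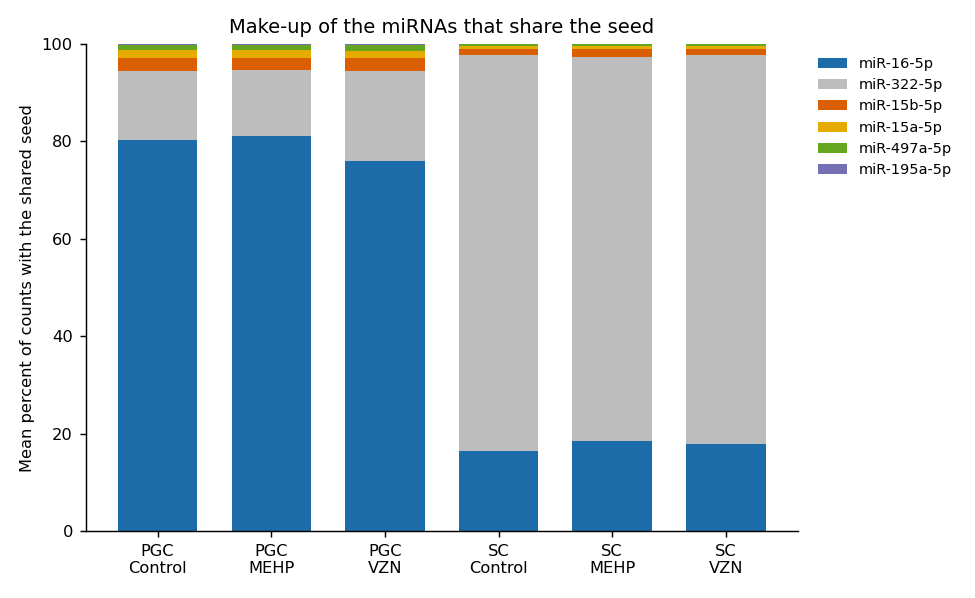
Mean share, in percent of their summed CPM, of the 6 miRNAs that carry the seed AGCAGCA, in 6 groups of 8 libraries. In Control miR-16-5p takes 80.4% in PGC and 16.5% in SC, and miR-322-5p 14.2% and 81.2%.

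Between fractions the X-linked relatives went the opposite way from miR-16-5p. Of 9 relatives and cluster mates looked for, 4 were in the table, and all 4 were called in each lineage. Of all miRNAs tested, 84.1% were called in Control, 87.3% in MEHP and 81.3% in VZN, so a call alone sets no relative apart. miR-497a-5p, the neighbour of miR-195a-5p, was 478 ± 53.2 CPM in Control PGC and 234 ± 22.4 CPM in Control SC, and higher in PGC by 1.13 in Control, 1.04 in MEHP and 1.19 in VZN on the log2 scale. The X-linked cluster was lower in PGC: miR-322-5p by -3.497, -3.32 and -3.02, miR-503-5p by -4.12, -3.96 and -3.73, and miR-351-5p, a miRNA of the same cluster, by -3.71, -3.76 and -3.12 in Control, MEHP and VZN. In Control miR-322-5p was 6137 ± 1551 CPM in PGC and 73343 ± 17343 CPM in SC, and miR-503-5p was 69.2 ± 35.1 and 1196 ± 257 CPM. Of 8 opposite arms, 3 were in the table and 1, miR-15b-3p, was listed in all libraries and tested. It was 108 ± 15.0 CPM in Control PGC and 109 ± 20.6 CPM in Control SC, and was not called in any lineage (0.10, 0.06 and 0.31).

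Other miRNAs reported to target Bcl2 or its relatives showed no common direction between fractions. The list joins miRNAs reported for Bcl2, Mcl1, Bcl2l1, Bcl2l2, Bcl2l11 or Bak1 and was not split by target. It also holds miR-182-5p of the germ cell markers, and miR-143-3p and miR-125b-5p of the somatic markers. Of a list of 24, all in the table, 17 were tested: 7 were higher in PGC, 7 lower and 3 not called in Control, with a median log2 difference of 0.16, against 0.09 over all 251 miRNAs. In MEHP 9 were higher and 7 lower, and in VZN 7 and 7. The numbers called, 14, 16 and 14 of 17 in Control, MEHP and VZN, stand beside 84.1%, 87.3% and 81.3% of all miRNAs tested. The 4 with the highest mean level went both ways in Control: miR-92a-3p of the miR-17-92 cluster was higher in PGC by 1.93 (91604 against 25827 CPM) and miR-182-5p of the miR-183 cluster by 4.71 (30001 against 1252 CPM), while let-7c-5p was lower by -2.55 (4523 against 28620 CPM) and miR-181a-5p by -3.19 (2846 against 27110 CPM). Each of these 4 was called by edgeR. The median over the 4 members was 0.48 in Control, 0.63 in MEHP and 0.37 in VZN, beside medians of 0.09, 0.06 and 0.12 over all miRNAs.

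The second comparison asked whether descendants of exposed females differ from those of control females, as a mean over the 4 classes. No member was called in either fraction, and the MEHP and VZN comparisons share the control libraries. In PGC the MEHP minus Control differences on the log2 scale were 0.09 ± 0.16 for miR-15a-5p (95% confidence interval -0.24 to 0.42), 0.01 ± 0.13 for miR-15b-5p (-0.26 to 0.28), 0.03 ± 0.09 for miR-16-5p (-0.16 to 0.22) and -0.17 ± 0.34 for miR-195a-5p (-0.89 to 0.55). The VZN minus Control differences in PGC were -0.16 ± 0.16 for miR-15a-5p (-0.49 to 0.17), 0.04 ± 0.13 for miR-15b-5p (-0.24 to 0.31), -0.10 ± 0.09 for miR-16-5p (-0.29 to 0.09) and -0.23 ± 0.34 for miR-195a-5p (-0.95 to 0.49). The intervals of miR-16-5p exclude a mean change beyond 0.29 in either direction, while those of miR-195a-5p reach -0.95.

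In SC the MEHP minus Control differences were -0.09 ± 0.15 for miR-15a-5p (-0.40 to 0.23), -0.01 ± 0.09 for miR-15b-5p (-0.20 to 0.18), -0.04 ± 0.09 for miR-16-5p (-0.23 to 0.16) and -0.35 ± 0.36 for miR-195a-5p (-1.12 to 0.41). The VZN minus Control differences were 0.04 ± 0.15 for miR-15a-5p (-0.27 to 0.35), -0.05 ± 0.09 for miR-15b-5p (-0.24 to 0.14), 0.08 ± 0.09 for miR-16-5p (-0.12 to 0.27) and -0.23 ± 0.36 for miR-195a-5p (-0.995 to 0.53). Every interval held 0.

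The 2 exposed lineages were also set against each other, and no member was called. In PGC the MEHP minus VZN difference was 0.25 ± 0.16 for miR-15a-5p, -0.02 ± 0.13 for miR-15b-5p, 0.13 ± 0.09 for miR-16-5p and 0.06 ± 0.34 for miR-195a-5p. In SC it was -0.13 ± 0.15, 0.04 ± 0.09, -0.11 ± 0.09 and -0.12 ± 0.36 in the same order. The SC value of miR-15a-5p was called without MEHP SC F3 replicate 2 (-0.33, adjusted p 0.0436, edgeR) and was 0.00 without MEHP SC F3 replicate 1. No miRNA was called in any of these mean comparisons with edgeR (0% of 303 in PGC and of 355 in SC) or DESeq2. With edgeR 5 miRNAs had an unadjusted p under 0.05 in PGC for MEHP against Control, 8 for VZN against Control and 13 for MEHP against VZN, and in SC 10, 5 and 5 did. No member was among them. When a single library was left out, some fits called miRNAs in each of these mean comparisons except VZN minus Control in SC.

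**Figure D4:**
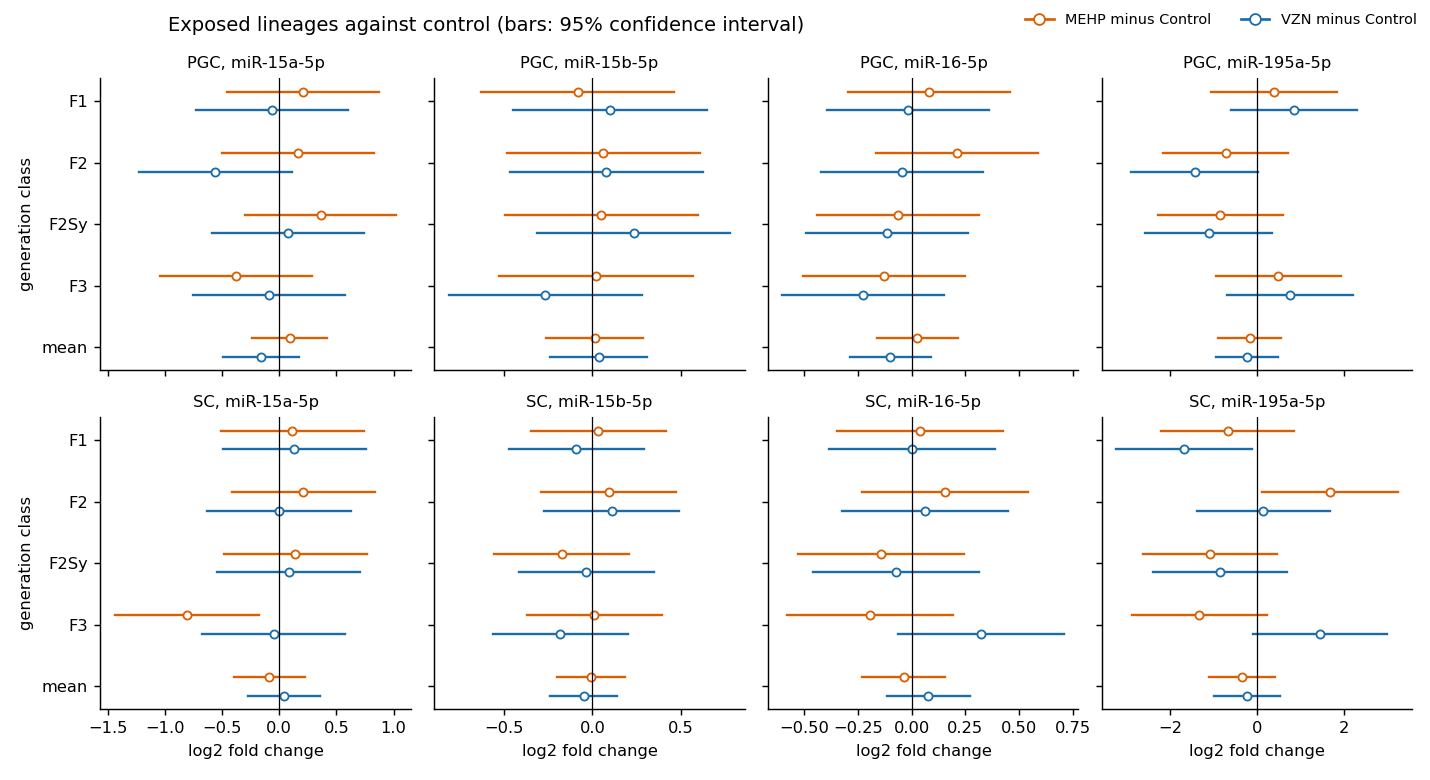
Exposed minus Control difference on the log2 scale for each member in PGC (top) and SC (bottom), in each generation class and as the mean over the 4 classes; points are edgeR estimates and bars 95% confidence intervals, and open symbols mark an adjusted p not under 0.05. All symbols are open, and the miR-195a-5p class estimates spread from -1.67 to 1.69.

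Within the generation classes, each with 2 exposed and 2 control libraries, no member was called by edgeR or DESeq2 in 64 tests (4 members in 16 comparisons). The smallest edgeR adjusted p was 0.293, and 3 tests had an unadjusted p under 0.05. Of all miRNAs, 1 was called in 1 of the 16 comparisons, VZN against Control in PGC of F2Sy (0.330% of 303), and none in the other 15 (0%). DESeq2 called 12. Class estimates of miR-16-5p lay between -0.22 and 0.21 in PGC and between -0.19 and 0.32 in SC. Those of miR-15b-5p lay between -0.27 and 0.23 in PGC and between -0.18 and 0.11 in SC. Those of miR-15a-5p lay between -0.56 and 0.36 in PGC and between -0.81 and 0.21 in SC, and those of miR-195a-5p between -1.44 and 0.86 and between -1.67 and 1.69.

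The smallest of these p-values belonged to miR-15a-5p in SC of MEHP F3. Its 2 MEHP libraries were at 221 and 525 CPM and the 2 control libraries at 683 and 706 CPM, so the groups did not overlap. The difference was -0.81 ± 0.30 (-1.44 to -0.18; edgeR adjusted p 0.293). It was -0.29 without MEHP SC F3 replicate 1, the library at 221 CPM, and -1.64 without replicate 2, when it was called (adjusted p 0.000168, edgeR). A single library thus sets the size of this value.

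Among the remaining fractions and exposures the smallest p was always that of miR-195a-5p, and in each a single high control library took part. In SC of VZN F1 the exposed libraries were at 21.8 and 25.1 CPM and the controls at 22.2 and 134 CPM, a difference of -1.67 ± 0.74 (-3.24 to -0.11; edgeR adjusted p 0.994) that became 0.03 without Control SC F1 replicate 2. In PGC of VZN F2 the exposed libraries were at 41.9 and 43.7 CPM and the controls at 172 and 69.7 CPM, a difference of -1.44 ± 0.69 (-2.90 to 0.03; edgeR adjusted p 0.996) that became -0.64 without Control PGC F2 replicate 1. In PGC of MEHP F2Sy the exposed libraries were at 33.0 and 109 CPM and the controls at 48.9 and 207 CPM, a difference of -0.85 ± 0.68 (-2.29 to 0.60; edgeR adjusted p 0.601) that became 0.55 without Control PGC F2Sy replicate 2. The third unadjusted p under 0.05, named after its values were seen, was that of miR-195a-5p in SC of MEHP F2, at 29.1 and 124 CPM against 22.6 and 24.9 CPM in the controls (1.69 on the log2 scale).

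Joint tests asked whether the classes differ, for each exposure effect and among the controls of each fraction. Of 24 tests (4 members in 6 joint tests) none was called by edgeR or DESeq2, and 3 had an unadjusted p under 0.05 with edgeR, all for miR-195a-5p. Over all miRNAs edgeR called 0% in each joint test, with 33 of 355 at an unadjusted p under 0.05 for the MEHP effect in SC, where DESeq2 called 12. The 3 joint tests of miR-195a-5p were the MEHP effect in SC (edgeR adjusted p 0.475), the VZN effect in SC (edgeR adjusted p above 0.99) and the classes of Control PGC (edgeR adjusted p 0.991).

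Over the 24 libraries of a fraction, 20 relations were computed, between pairs of members and between each member and the summed erythroid markers, and 1 passed. In SC miR-16-5p and miR-195a-5p rose together, with Pearson's r 0.827 and Spearman's rho 0.863 over 24 libraries (permutation p = 1e-05 for each, the smallest that 100000 permutations can give; 0.0002 adjusted). The r was 0.759 without the 2 libraries farthest from the median of miR-16-5p, VZN F3 replicate 2 and MEHP F3 replicate 1, and 0.776 over deviations from the group means. Over those deviations miR-15a-5p and miR-15b-5p in SC had r -0.587, where the levels themselves gave -0.238. That r was -0.271 over the 22 libraries other than MEHP F3. The 2 deviations of a group mirror each other, so the 24 deviations are not independent. Each r over deviations is therefore given as a description without a test. In PGC miR-16-5p and miR-195a-5p had r 0.107 and rho 0.0487 (adjusted permutation p 0.770 for r). The reads of these 2 miRNAs differ at 2 positions, and whether reads of one were counted as the other was not tested. No relation with erythroid markers passed. The largest r was that of miR-16-5p in PGC, with r -0.443 and rho -0.437 (adjusted permutation p 0.203 and 0.228), and its r was 0.137 in SC. The largest rho was that of miR-15a-5p in SC, 0.491 (adjusted permutation p 0.159), with r 0.267.

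**Figure D5:**
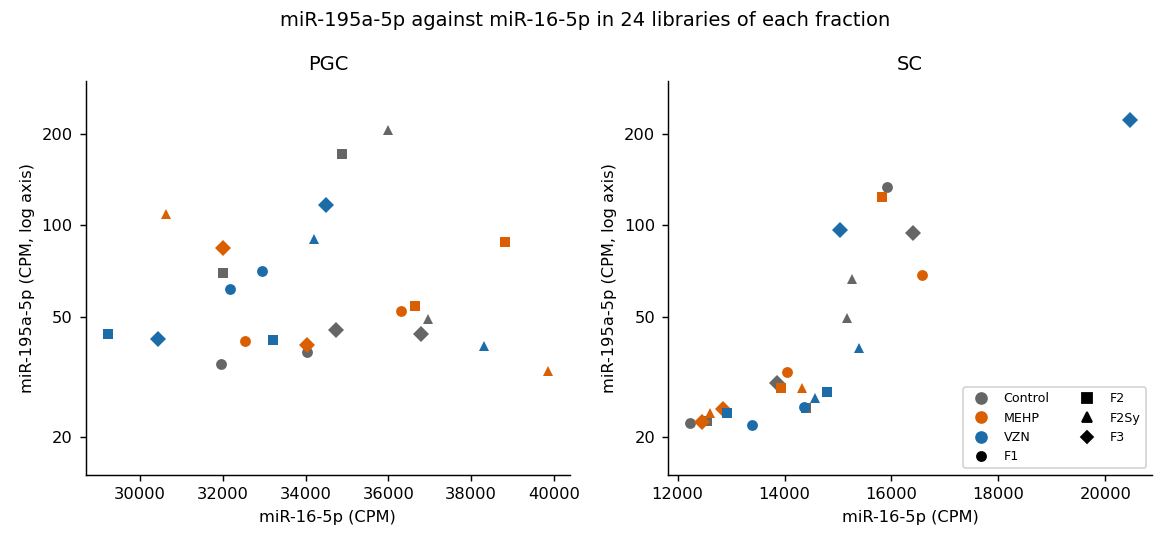
miR-195a-5p (CPM, log axis) against miR-16-5p (CPM) in the 24 PGC (left) and 24 SC libraries (right); each point is 1 library, its colour the lineage and its shape the generation class. In SC the points rise together (r 0.827 on log2 CPM), up to VZN F3 replicate 2 at 20471 and 222 CPM, and in PGC r was 0.107.

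Correlations of close neighbours are given as a description over 24 libraries. miR-195a-5p and its neighbour miR-497a-5p had r 0.189 in PGC and -0.040 in SC. The 2 arms of miR-15b had r 0.201 in PGC and -0.016 in SC. miR-16-5p and miR-322-5p, which hold most of the shared seed, had r -0.321 in PGC and 0.258 in SC.

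The miRNAs most like each member were taken as the 3 with the highest r of log2 CPM over the 24 libraries of a fraction. They were sought among 298 miRNAs in PGC and 348 in SC, with the 4 members and the opposite arms left out. In SC the r of miR-16-5p with the member miR-195a-5p, 0.827, was higher than with any of those 348. These libraries span 3 lineages, 4 generation classes and unequal listed totals, so r is a description. For miR-15a-5p they were miR-29c-3p (0.792), miR-294-3p (0.719) and miR-30e-5p (0.678) in PGC. In SC they were miR-32-5p (0.951), miR-101a-3p (0.940) and miR-376b-3p (0.934), which fell to 0.710, 0.679 and 0.609 without the 2 libraries farthest in miR-15a-5p. For miR-15b-5p they were miR-25-3p (0.675), miR-676-3p (0.609) and miR-23a-3p (0.601) in PGC, and miR-758-3p (0.690), miR-134-5p (0.558) and miR-542-5p (0.553) in SC. For miR-16-5p the likeness was weak in PGC, with miR-470-5p (0.486), miR-30a-3p (0.479) and miR-465c-5p (0.457), and stronger in SC, with miR-495-3p (0.736), miR-214-3p (0.729) and miR-152-3p (0.718). For miR-195a-5p they were miR-883a-3p (0.892), miR-532-3p (0.824) and miR-3102-3p (0.798) in PGC, and miR-214-3p (0.888), miR-3102-3p (0.872) and miR-186-5p (0.862) in SC. miR-3102-3p was thus near miR-195a-5p in both fractions, and its r was 0.655 in PGC and 0.767 in SC without the 2 farthest libraries.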

How the data were processed

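Per the labels' protocols, sequencing used RNA under 100 bases from samples whose RIN was 8 or more. The deposited table holds read counts as whole numbers for 563 miRNAs, and per the file headers a miRNA's count adds its isomiRs to the canonical form. Bowtie 1.3.1 and the build mm39 are named in the submitters' processing notes; none of the sources used here states how reads were assigned and counted, or why 7089 of the table's 27024 cells (26.2%) are blank while none is 0. Listed totals are therefore not the sequencing depth. No molecular identifiers are named, so reads need not be independent molecules.

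Because of the blanks, which the planned design had not foreseen, a fit took only miRNAs with a value in all of its libraries: 251 miRNAs with all 48 libraries (fractions and their change with exposure), 303 with 24 PGC libraries and 355 with 24 SC libraries (exposures). The test was that of edgeR 4.0.16 in R 4.3.3 (TMM factors, robust quasi-likelihood, two-sided, Benjamini-Hochberg over all miRNAs of a comparison, call at an adjusted p under 0.05), with group means as the design; residual degrees of freedom were 24, 12 and 12 and the biological coefficient of variation 0.310, 0.336 and 0.297. DESeq2 1.42.0 was an alternative. The scripts were tested on simulated counts. CPM are counts scaled to 1000000 of the listed total, and logarithms were taken with a prior count of 2. Shares and ratios were tested by exact permutation over all arrangements of the fraction labels within the classes, and their p-values were adjusted with scipy 1.17.1.

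The members, lists and tests were chosen with earlier results of these data known. Named by rule were all members in mean comparisons, the member and class with the smallest p in each fraction and exposure, all relatives and arms in the table, the 4 most abundant of the Bcl2 list, and the 3 most like miRNAs.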

Additional observations from a re-analysis of the deposited data

Results flagged for a closer look

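Of 24 sets of 8 libraries (4 members, 2 fractions, 3 lineages), 4 held a library far from the others by Dixon's 95% critical value. Independent sets of normal values exceed it in about 1 set in 20, and these sets need not be normal or independent. All 4 were SC sets of exposed lineages. In MEHP SC, F3 replicate 1 had a miR-15a-5p level of 221 CPM, with the nearest library at 525 CPM. In VZN SC, F3 replicate 2 had the highest miR-16-5p level, 20471 CPM, with the nearest at 15402 CPM. The same library had the highest miR-195a-5p level, 222 CPM, with the nearest at 96.4 CPM. In MEHP SC, F2 replicate 2 had a miR-195a-5p level of 124 CPM, with the nearest at 68.3 CPM. In the order named, these libraries had median correlations of 0.934, 0.952 and 0.961 with the other SC libraries. The median over all SC libraries was 0.9752. The share of sets with such a library over all miRNAs is not given, so the count sets no member apart.

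In 8 of 16 sets of member, fraction and exposed lineage, some classes had both exposed libraries above both controls and others had both below. Over all miRNAs tested this held for 331 of 1316 such sets (25.2%). The joint edgeR test of a difference between classes called none of the 8. The smallest unadjusted p was 0.0401 (0.475 adjusted over all miRNAs, edgeR), for miR-195a-5p in SC of the MEHP lineage, with 1.69 in F2 and -1.33 in F3 on the log2 scale.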

How the results depend on the processing

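Of 667 values recomputed under other settings, 610 kept their direction and side of the threshold or stayed within the allowed change; of 2608 with 1 library left out, 2456 did. miR-16-5p stayed called as higher in PGC in all 3 lineages under every setting and every library left out (1.35 to 1.44, 1.37 to 1.51 and 1.15 to 1.34 with 1 left out). Values below are PGC minus SC, or exposed minus Control, on the log2 scale, in the order of the settings named. The cause of a change was not tested unless fewer samples or more miRNAs in the fit make it.

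miR-15a-5p lost its Control call with library size alone (0.24), blanks as 0 (0.20) and blanks at the smallest listed count (0.20), leaving 1 member called each time, and its MEHP call with blanks as 0 (0.34; 1 called). miR-15b-5p turned negative under those 3 settings in Control (-0.047, -0.097, -0.089) and MEHP (-0.026, -0.11, -0.081); library size alone and blanks as 0 shift the median of all miRNAs in Control by -0.11 and -0.16. miR-195a-5p became called in MEHP with RLE factors (0.78), DESeq2 (0.78) and only the groups compared (0.82), and in VZN with only the groups compared (0.58; 2 called). miR-15a-5p became called in VZN without VZN PGC F2Sy replicate 2 and MEHP SC F3 replicate 1, an alternative added after seeing the data (0.29; 2 called).

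Uncalled values near 0 also turned. The change of the fraction difference turned to -0.013 for miR-15b-5p in MEHP (blanks as 0), and for miR-195a-5p in VZN to 0.019 (RLE), 0.067 (library size alone), 0.023 (blanks as 0), 0.043 (blanks at the smallest) and 0.018 (DESeq2). miR-15b-5p turned in MEHP minus VZN in PGC to 0.0015 (RLE), 0.0015 (DESeq2), 0.012 (all 48 libraries) and 0.028 (without those 2 libraries), and in MEHP SC to 0.0071 (RLE), 0.0070 (DESeq2) and 0.0093 (all 48). Without those 2 libraries it became -0.0031 in VZN PGC and -0.0065 in MEHP minus VZN in SC, and miR-15a-5p became 0.045 in MEHP SC and 0.0045 in MEHP minus VZN in SC. The r of miR-15b-5p and miR-16-5p in SC became 0.139 with library size alone, and over deviations from group means that of miR-16-5p and miR-195a-5p in PGC became -0.071 and that of miR-15a-5p and erythroid markers in PGC -0.042.

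With 1 library left out, the fraction difference ran from 0.32 to 0.44 (miR-15a-5p, Control), 0.31 to 1.03 (miR-195a-5p, Control), -0.039 to 0.18 (miR-15b-5p, MEHP), 0.46 to 1.15 (miR-195a-5p, MEHP, called in 20 of 48) and 0.048 to 0.37 (miR-15a-5p, VZN). Its change with MEHP ran from -0.098 to 0.082 (miR-15b-5p), -0.0089 to 0.087 (miR-16-5p) and -0.29 to 0.48 (miR-195a-5p), and with VZN from -0.44 to 0.34 (miR-195a-5p). In PGC the MEHP mean ran from -0.085 to 0.10 (miR-15b-5p), -0.015 to 0.077 (miR-16-5p) and -0.44 to 0.16 (miR-195a-5p), the VZN mean from -0.032 to 0.073 (miR-15b-5p) and -0.49 to 0.081 (miR-195a-5p), and MEHP minus VZN from -0.12 to 0.090 (miR-15b-5p) and -0.18 to 0.31 (miR-195a-5p). In SC the MEHP mean ran from -0.29 to 0.045 (miR-15a-5p), -0.056 to 0.032 (miR-15b-5p), -0.068 to 7.1e-05 (miR-16-5p) and -0.69 to 0.074 (miR-195a-5p), the VZN mean from -0.0034 to 0.091 (miR-15a-5p) and -0.42 to 0.19 (miR-195a-5p), and MEHP minus VZN from -0.33 to 0.0045 (miR-15a-5p), -0.0065 to 0.082 (miR-15b-5p) and -0.46 to 0.071 (miR-195a-5p). Class values ran from -1.88 to 0.55 (miR-195a-5p, PGC MEHP F2Sy), -1.95 to -0.64 (miR-195a-5p, PGC VZN F2), -1.64 to -0.29 (miR-15a-5p, SC MEHP F3) and -2.43 to 0.028 (miR-195a-5p, SC VZN F1). Members called ran from 1 to 3 in Control, 2 to 3 in MEHP, 1 to 2 in VZN, and 0 to 1 in MEHP minus VZN in SC, in the class comparisons and in the joint tests, each of the last 3 reaching 1 without MEHP SC F3 replicate 2.

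Over all miRNAs, calls between fractions rose from 211, 219 and 204 of 251 to 407, 404 and 389 of 563 with blanks as 0 and to 489, 497 and 482 with blanks at the smallest listed count. Class comparisons called 1 miRNA, 12 with DESeq2, 16 without the 2 libraries, 6 with all 48 libraries, and 0 to 82 with 1 left out, 82 without MEHP SC F3 replicate 2. With the replicate number as a block, the same numbers of members were called in each lineage (2, 2 and 1; miR-15a-5p in Control 0.36, adjusted p 0.0343, edgeR), and no call of a member changed. The numbers were not taken to pair libraries. Same-numbered libraries deviated together (r over 0.1) in 4 of 12 pairs across fractions, with r from -0.455 to 0.534. They did so in 2 of 8 pairs across exposures in PGC and 2 of 8 in SC. These values cannot show that same-numbered PGC and SC libraries come from separate pools. The block is 1 term over all groups, and pairing of the fractions within a group was not tested. Of the ratios and shares within libraries, that of miR-15b-5p to miR-15a-5p in MEHP lost its call in 11 of 16 fits with 1 library left out (-0.57 to -0.27), an alternative added after seeing the data, and no other crossed the threshold. miR-195a-5p was under 3 times the smallest listed count in 17 of 24 PGC and 16 of 24 SC libraries.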
